A study of Mus musculus with 12 samples.

Results

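The core histone genes described here are the 62 genes, of 23412 in the count tables, whose symbol begins with Hist1 to Hist4 followed by h2a, h2b, h3 or h4. They hold 18 genes for H2A, 19 for H2B, 12 for H3 and 13 for H4. Of the 62, 61 are annotated as protein coding, and Hist3h2bb-ps, counted with H2B, is a processed pseudogene with 0 or 1 counts per library. Their RNA was read from 12 bulk RNA-Seq libraries of mESCs of the v6.5 line, male mouse embryonic stem cells kept on gelatin in serum with LIF. Each of 4 genotypes had 3 libraries: WT, Hmgn1-/-, Hmgn2-/- and Hmgn1-/-Hmgn2-/-. HMGN1 and HMGN2 are proteins that bind nucleosomes, and the study compared the genotypes to learn how their loss alters transcription.

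The edits were homozygous. In the Hmgn1-/- line exon 3 of Hmgn1 had lost 1 bp, and in the Hmgn2-/- line exon 4 of Hmgn2 had gained 1 bp. For the double knockout, cells of the Hmgn2-/- line were edited at Hmgn1 as well. Each knockout line grew from a single edited cell, so that a genotype is 1 clone, and the 3 replicates are separate collections of that line, harvested after 48 h. The p-values therefore measure the spread between cultures of 1 clone, and a difference between genotypes cannot be told apart from a difference between clones.

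Core histones form the protein spool of the nucleosome, and their bulk supply is made in S phase from clustered genes that lack introns. The mRNAs of these replication-dependent genes end in a conserved stem-loop in place of a poly(A) tail. Stem-loop binding protein binds that structure and, together with the U7 snRNP, takes part in forming the mRNA end. The mRNA is degraded quickly when DNA synthesis stops. Replication-independent variants such as H2A.Z and H3.3 come from genes with introns and ordinary polyadenylation. The libraries were enriched for poly-A transcripts, so that the counts of the clustered genes are of whatever part of their RNA passed this selection and are no measure of total histone mRNA.

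Of the 47 members with an annotated 3′ UTR, 42 (89.4%) had the stem-loop pattern GGNNNTNNNNANNNCC with fully complementary arms in the first 100 bases after the stop codon, against 16 of 20919 other protein-coding genes (0.0765%). The linker histone genes Hist1h1c, Hist1h1d, Hist1h1e and Hist1h1t and the variant genes H2afx and H2bfm were among those 16. Examples are given below from the GRCm38 genome (mm10), with the paired arms in capitals and 5 flanking bases on each side. All lie in the 3′ UTR of the single exon of their gene. They are 10 of the 42, from genes of all 4 histone types described further on, chosen after their values were seen and without a fixed rule. Hist1h2af, Hist1h3h and Hist1h4k have no annotated 3′ UTR, and Hist1h2bc has one without the pattern.

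Hist1h2ae: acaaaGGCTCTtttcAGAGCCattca
Hist3h2a: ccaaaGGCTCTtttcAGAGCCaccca
Hist1h2ab: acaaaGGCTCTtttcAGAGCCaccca
Hist1h2bj: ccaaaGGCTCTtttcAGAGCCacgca
Hist1h2bm: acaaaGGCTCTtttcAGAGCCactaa
Hist3h2ba: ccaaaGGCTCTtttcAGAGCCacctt
Hist1h3c: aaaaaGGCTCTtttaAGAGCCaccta
Hist1h3g: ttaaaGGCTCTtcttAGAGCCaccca
Hist1h4i: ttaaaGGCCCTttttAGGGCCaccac
Hist1h4b: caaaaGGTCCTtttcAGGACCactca

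The stem-loop of Hist1h2ae lies at chr13:23570668-23570683 on the minus strand, that of Hist3h2a at chr11:58955172-58955187 on the plus strand and that of Hist1h4i at chr13:22040966-22040981 on the minus strand. There were 8 kinds of stem-loop among the 42. The most frequent, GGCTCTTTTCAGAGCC, was in 23 members, 10 of H2A, 8 of H2B and 5 of H3, and in no H4 gene. The next, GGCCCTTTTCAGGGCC, was in 7 members, all of H4.

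Annotated transcripts ended within 50 bases of the stem-loop in 20 members and ran on further in 22. A polyadenylation signal, AATAAA or ATTAAA in the last 50 bases of an annotated transcript, was present for 15 of the 62 members. Hist3h2a had both: its transcript runs on for 1643 bases after the stem-loop and ends with such a signal. Of the members, 57 had a single exon in every annotated transcript and 5 were spliced in at least 1: Hist1h2bc, Hist1h2be, Hist1h2bp, Hist1h2bq and Hist1h2br. By position, 48 belong to the Hist1 cluster (chromosome 13, 21715763 to 23934851), 10 to Hist2 (chromosome 3, 96219865 to 96270132), 3 to Hist3 (chromosome 11, 58948920 to 58956830) and 1, Hist4h4, lies alone (chromosome 6, 136801553 to 136804415).

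Promoter windows of 300 bases, from 250 before to 50 after a start site, were matched in RefSeq (GRCm38.p6) for 55 of the 62 members. The octamer ATTTGCAT, searched on both strands, was in the windows of 13 of the 55 (23.6%) and of 474 of all 27025 genes with a window (1.75%). It was in 7 of 17 H2A genes (41.2%), 6 of 16 H2B genes (37.5%), 0 of 10 H3 genes and 0 of 12 H4 genes. The octamer is known from H2B promoters as a binding sequence of OCT1, and 5 of the 13 windows are shown as examples. They are those of members with an adjusted p under 0.05 against WT that have the octamer, and of a divergent pair. Hist1h2af, with the most negative log2 FC against WT among the members tested, has a window without the octamer. Each is written along the gene's own strand with the octamer or its reverse complement in capitals.

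Hist3h2a: taaggcatATGCAAATtaggaagg
Hist1h2ab: aggcctttATGCAAATgaggagct
Hist1h2bm: tcgtctctATTTGCATaacagcgt
Hist1h2ae: gaggttctATGCAAATaagggact
Hist1h2bg: agtcccttATTTGCATagaacctc

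The octamer of Hist3h2a lies at chr11:58954566-58954573, 119 bases before the start, and that of Hist1h2ab at chr13:23750959-23750966, 129 bases before it. In Hist1h2bm it lies at chr13:21722019-21722026, 25 bases before the start. Hist1h2ae and Hist1h2bg are transcribed away from each other, and the octamer in both windows is the same stretch, chr13:23571341-23571348. CCAAT, on either strand, was in the windows of all H2A, H2B and H3 genes matched and of 3 of 12 H4 genes (25%), against 37.9% of all genes. TATAAA, on either strand, was in 31 of 55 members (56.4%) and in 14.2% of all genes. A match shows only that these letters are in the window.

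The 12 libraries held 17337908 to 31448468 counts. The WT libraries held 31448468, 17614490 and 28524108, the Hmgn1-/- libraries 25953244, 21059862 and 21993042. The Hmgn2-/- libraries held 25908890, 26486535 and 17337908, and the double knockout libraries 31005479, 22151507 and 26410485. At these depths 3 counts, the upper limit that a count of 0 allows, correspond to 0.0938 to 0.178 CPM, the unit that scales counts by library size. This floor covers counting error only, since no molecular identifiers are described for the reads. Levels are given as CPM after scaling between libraries by the trimmed mean of M values (TMM).

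The edited genes were checked first. Hmgn1 had 662, 600 and 614 CPM in WT mESCs, 138, 139 and 141 in Hmgn1-/- mESCs, 545, 556 and 640 in Hmgn2-/- mESCs and 21.5, 19.9 and 21.4 in the double knockout. Hmgn2 had 137, 123 and 120 CPM in WT mESCs, 105, 113 and 109 in Hmgn1-/- mESCs, 50.7, 54.5 and 53.7 in Hmgn2-/- mESCs and 53.8, 50.5 and 54.2 in the double knockout. Each edited gene was lowest in the libraries whose label names its edit, with no overlap with the other libraries, so that the labels hold. The embryonic stem cell markers were all present: Pou5f1, which encodes OCT4, had a mean of 1890 CPM over the 12 libraries, Dppa5a 1370 and Tdgf1 986. At an adjusted p under 0.05 in edgeR, 3, 3 and 4 of the 10 markers were higher and 1 was lower in each of Hmgn1-/-, Hmgn2-/- and double knockout mESCs against WT, beside 28.4%, 18.9% and 29.0% of all genes in either direction. Nanog was the lower one, with log2 FC of -0.32, -0.5 and -0.45. Klf4 was higher, with 0.93, 0.69 and 0.74, and was called in Hmgn1-/- mESCs without WT replicate 1 (1.01). Esrrb was higher, with 0.47, 0.32 and 0.28, and in Hmgn2-/- mESCs its adjusted p passed 0.05 without WT replicate 2 (0.0627), WT replicate 3 (0.0917) or Hmgn2-/- replicate 2 (0.0835). The 10 markers together summed to 7260 ± 142 CPM in WT, 7560 ± 255 in Hmgn1-/-, 7400 ± 614 in Hmgn2-/- and 7230 ± 392 in double knockout mESCs (SD, n = 3).

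Core histone genes took a very small part of each library. Their summed counts ran from 1098 to 2079 per library, 0.00538% to 0.00707% of all counts, and 48 to 53 of the 62 had at least 1 count in a library. Over the 12 libraries, 43 members had at least 1 count in each, 19 had at least 10 in each and 2, Hist1h4i and Hist1h2bc, had at least 100 in each. At the other end, 11 members had 3 counts or fewer in every library, and 7 of these had 0 in all 12: Hist1h2ao, Hist1h2ap, Hist1h2ba, Hist1h2bq, Hist1h2br, Hist1h4m and Hist2h2aa1. The highest-ranked member by CPM, Hist1h4i, was 9237th of the 23412 genes. Hist1h2aa and Hist1h2ba, a divergent pair known for expression in the testis, had 2 and 0 counts in all 12 libraries together.

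Near-identical copies and overlapping genes limit what a count of these genes means. A window of 150 bases, the read length, was shared with another gene's transcript at some positions in 50 members, at all positions in 2 and at none in 10. The other gene can be a copy or a gene annotated over the same stretch, as Trim17 is for Hist3h2a and Gm42743 for Hist2h2bb. Of the 11 members with over 84% of such windows shared, 6 were at 0 counts in every library. Among the 10 members that shared none, no member was at 0 in all libraries. Hist1h3h shared 90.5% of its windows and had 37 to 96 counts per library. The sources used here do not give the counting program, so which copy received a shared read is not known, and 23 members also overlap another annotated gene. Values of single members with shared windows are uncertain for that reason.

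Per length, the 9 replication-independent genes that passed the filter on low counts stood above every clustered gene, from slightly to far. The mean level over 12 libraries was 634 CPM per kb of exon for H2afz (H2A.Z), 378 for H2afx (H2A.X), 232 for H3f3b and 140 for H3f3a, which both encode H3.3. The highest clustered gene was Hist1h4i, with 11.5 CPM per kb, followed by Hist1h3c with 6.89, Hist1h2bc with 6.58 and Hist1h2ae with 6.17. The lowest of the 9 were H2afy (20 CPM per kb) and H2afy2 (13.8 CPM per kb). The other 3 replication-independent genes in the tables, H2afy3, H2afb1 and H2bfm, had 0.172, 0.0266 and 0.0239 CPM per kb, below many clustered genes. H2afx also has the stem-loop pattern, and the annotated exons of H2afx and H2afj cover the whole gene, without an intron. The description of such genes as having introns therefore does not hold for every gene of this list.

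**Figure D1:**
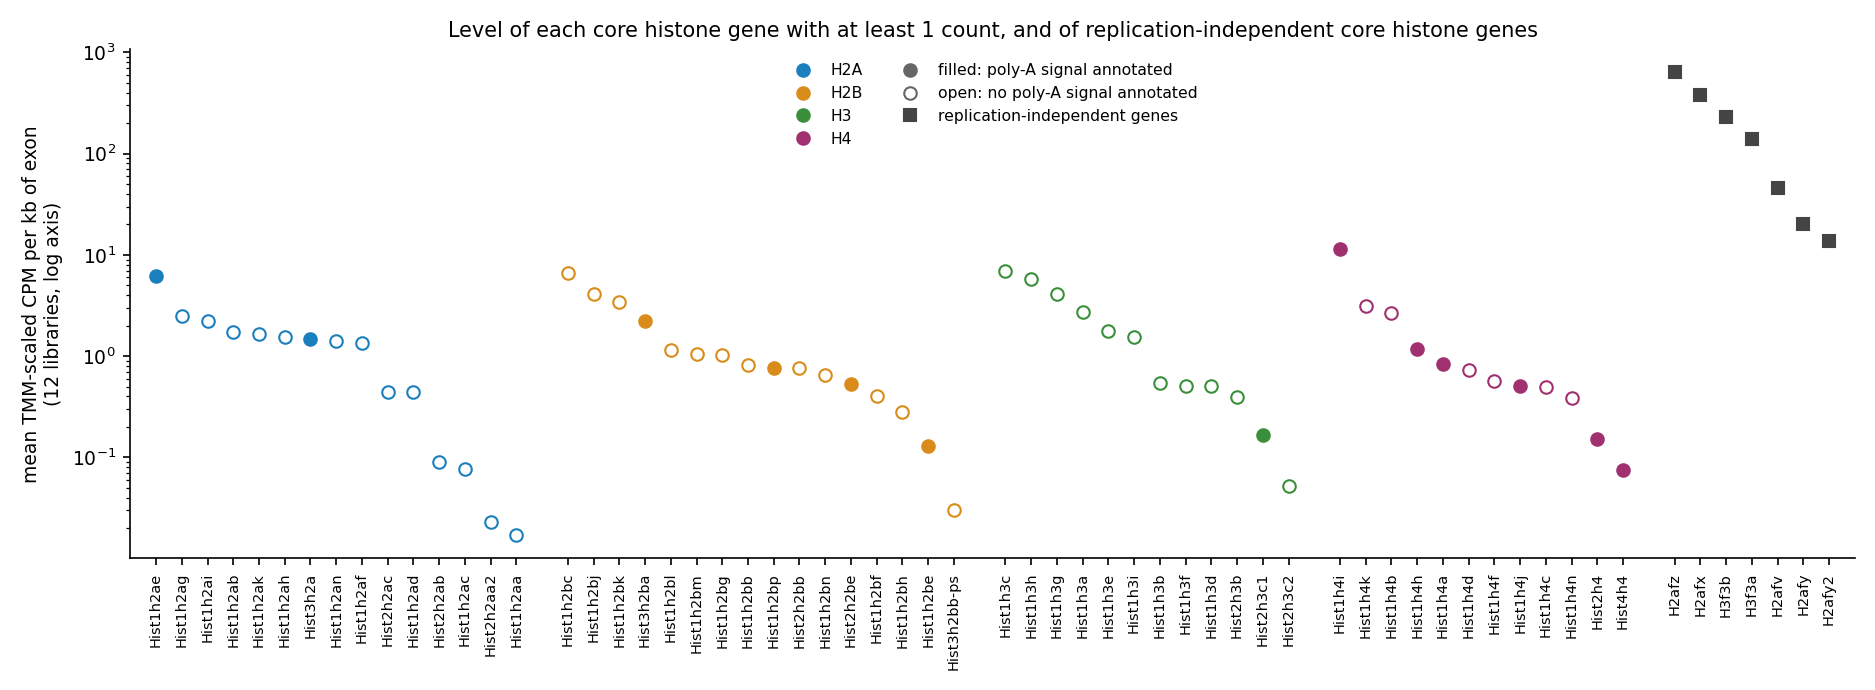
Mean level of each core histone gene with at least 1 count, as TMM-scaled CPM per kb of exon over the 12 libraries. The axis is a log axis, and genes are grouped by histone type. Squares are the replication-independent genes H2afz, H2afx, H3f3b, H3f3a, H2afv, H2afy and H2afy2. Other replication-independent genes are not drawn, among them H2afy3, H2afb1 and H2bfm, which lie below many clustered genes. Filled points have an annotated polyadenylation signal and open points do not. Hist1h4i was the highest member at 11.5, and H2afz stood at 634.

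Members with and without an annotated polyadenylation signal overlapped in level, but the split is not a clean one. Of those without a signal, 15 have no annotated 3′ UTR, so that a signal in it could not be found. The 15 with a signal had a median of 0.528 CPM per kb (range 0 to 11.5) and the 47 without it a median of 0.735 (range 0 to 6.89). Without scaling by length the order turned round, with medians of 0.534 and 0.469 CPM. The members with a signal held 33.5% to 39.8% of the members' counts in a library. Of the 19 members with at least 10 counts in every library, 5 had a signal and 14 did not. In the plot of levels per kb, filled and open points are mixed within H2A, H2B and H4. H3 has a single filled point, Hist2h3c1, which is low at 0.167 CPM per kb.

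RNAs made without a poly(A) tail were listed beside the core histone genes. Of 25 such RNAs listed, 16 were in the count tables, and these summed to 67 to 154 counts per library, or 3.19 to 4.82 CPM. The highest was Terc, the telomerase RNA, with 1.51 CPM, followed by Rnu73b with 0.707 and Rpph1, the RNase P RNA, with 0.631. The 62 core histone genes together had 53.4 to 72.9 CPM. Terc has 423 bases of exon, Rpph1 319 and Rnu73b 71, against a median of 526 for the core histone genes. Whether their short length or the poly-A selection keeps these RNAs low was not tested.

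For H4, Hist1h4i had 8.22, 7.47 and 6.74 CPM in WT mESCs, 7.55, 8.69 and 8.89 in Hmgn1-/-, 8.48, 7.11 and 10.2 in Hmgn2-/- and 9.31, 7.82 and 9.45 in the double knockout. All 4 genotypes overlapped. For H2B, Hist1h2bc had 7.63, 6.73 and 8.23 CPM in WT mESCs, 6.75, 9.02 and 8.76 in Hmgn1-/-, 5.83, 7.15 and 8.09 in Hmgn2-/- and 7.07, 8.59 and 7.4 in the double knockout, again with overlap throughout. Its annotated transcript is spliced and has no stem-loop in the first 100 bases after the stop codon.

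For H3, Hist1h3c had 5.07, 5.2 and 3.4 CPM in WT mESCs, 3.8, 3.96 and 4.49 in Hmgn1-/-, 3.95, 4.28 and 6.3 in Hmgn2-/- and 3.33, 4.11 and 4.17 in the double knockout, with no genotype apart from WT. For H2A, Hist1h2ae had 5.19, 4.64 and 4.69 CPM in WT mESCs, 4.37, 3.96 and 4.45 in Hmgn1-/-, 3.8, 4.47 and 4.7 in Hmgn2-/- and 3.61, 4.47 and 3.79 in the double knockout. Its Hmgn1-/- and double knockout libraries lay below all WT libraries, with log2 fold changes (FC) of -0.18 (SE 0.154) and -0.3 (SE 0.158) and adjusted p-values of 0.413 and 0.187 in edgeR. Hist3h2a, the H2A gene with the second highest mean (3.19 CPM), is described below. The other members with high counts for their type were Hist1h2ag (mean 1.2 CPM), Hist1h2bj (1.89), Hist1h2bk (1.64), Hist1h3h (2.38), Hist1h3g (2.2), Hist1h4b (1.05) and Hist1h4k (0.975). Against WT, edgeR gave an adjusted p of at least 0.0689 for each of these 7, the lowest being that of Hist1h4k in Hmgn1-/- mESCs (log2 FC 0.76, SE 0.293).

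The summed level of the 62 genes differed by less than the spread between replicates. It was 65, 62.1 and 55.4 CPM in WT mESCs, 55.9, 63.3 and 64.8 in Hmgn1-/-, 53.9, 56.8 and 72.9 in Hmgn2-/- and 53.4, 59.5 and 60.2 in the double knockout. The means were 60.9 ± 4.9, 61.3 ± 4.76, 61.2 ± 10.2 and 57.7 ± 3.72 (SD, n = 3). Relative to WT this gave ratios of 1.01, 1.01 and 0.948, and every knockout overlapped WT. With library totals in place of TMM the first and second ratio fell on the other side of 1, at 0.994 and 0.985. Bulk RNA cannot tell fewer cells in S phase from less histone RNA per cell.

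By type, the sums for H2B, H3 and H4 overlapped between WT and every knockout. H2B summed to 17.9 ± 0.936 CPM in WT and 18 ± 0.889 in the double knockout, H3 to 14.9 ± 2.8 and 13.7 ± 1.55, and H4 to 12.9 ± 1.2 and 14.1 ± 0.547 (SD, n = 3). H2A summed to 15.3, 16 and 14.4 CPM in WT mESCs, 13.2, 12.7 and 15 in Hmgn1-/-, 11.2, 12.9 and 16.1 in Hmgn2-/- and 10.3, 12.1 and 13.1 in the double knockout. The double knockout libraries lay below all WT libraries, with a ratio of means of 0.776, and of 0.769 and 0.775 with library totals and RLE scaling. Without Hist3h2a, an alternative chosen after seeing the data, the ratio was 0.883 and the groups overlapped. These sums were not tested.

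**Figure D2:**
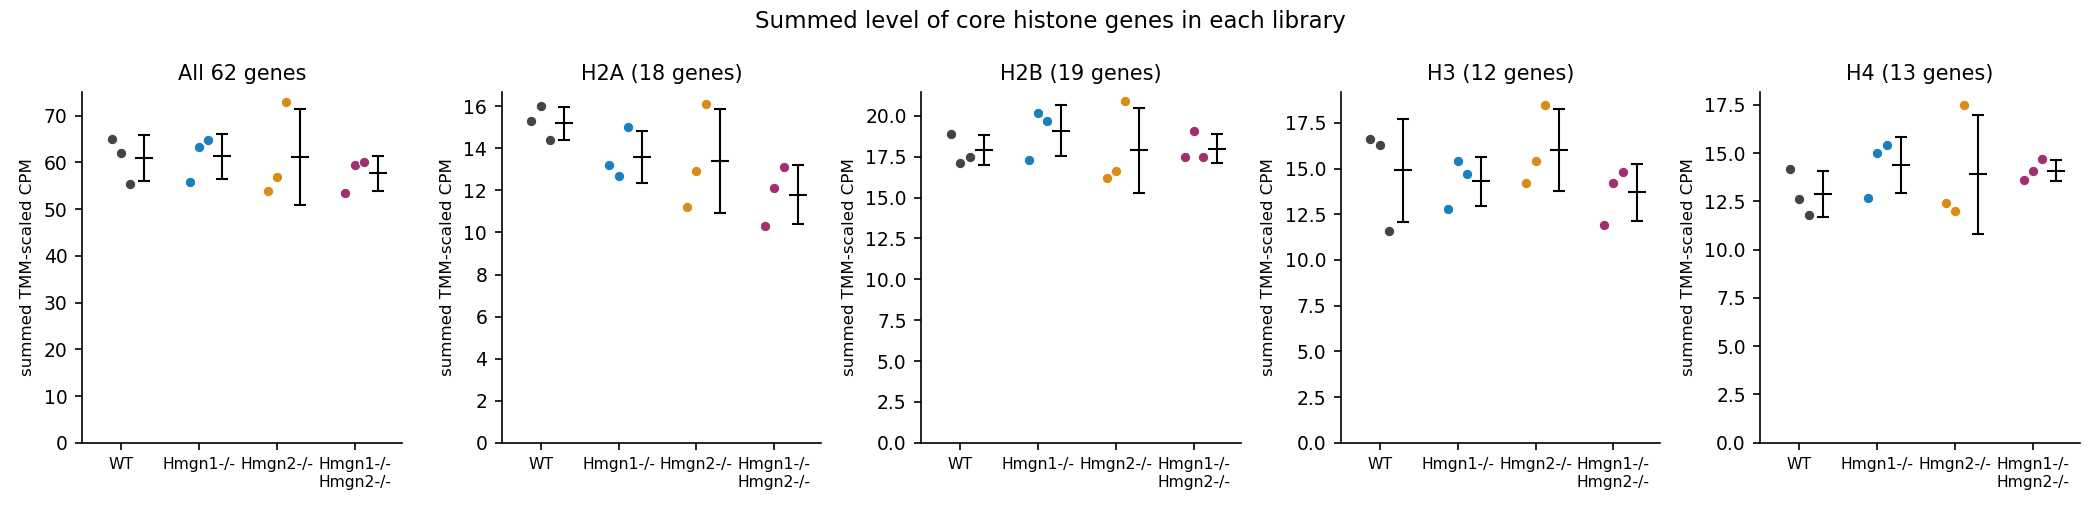
Summed TMM-scaled CPM of all 62 core histone genes and of each histone type, 1 point per library, with the mean and SD of each genotype (n = 3). WT and knockout libraries overlap in every panel except the H2A sum of the double knockout, at 10.3 to 13.1 against 14.4 to 16 in WT.

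Tests were run over all genes that passed edgeR's default filter on low counts, and a gene was called at an adjusted p under 0.01 and a log2 FC of at least 1 in size. Between 33 and 36 members passed the filter in a comparison, 37 passed in at least 1 and 25 in none, so that the counts of calls cover the more abundant members only.

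In Hmgn1-/- mESCs against WT, 0 of 35 members tested were called by edgeR, beside 5.98% of all genes tested. DESeq2 also called 0, and 3 members had an unadjusted p under 0.05 in edgeR, beside 38.7% of all genes, and 0 in DESeq2. At an adjusted p under 0.05 with no fold limit, 2 members passed, Hist1h2ab and Hist1h2bm, beside 28.4% of all genes. The log2 FC of the members ran from -0.97 to 0.76 with a median of 0.03, and 18 were positive and 17 negative. The median over all genes was 0.

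Hist1h2ab, an H2A gene, had 1.03, 0.961 and 0.798 CPM in WT mESCs, 0.422, 0.573 and 0.458 in Hmgn1-/-, 0.729, 1.1 and 1.37 in Hmgn2-/- and 0.672, 0.859 and 0.872 in the double knockout. Hist1h2bm, an H2B gene, had 0.782, 0.735 and 0.798 CPM in WT mESCs, 0.345, 0.43 and 0.413 in Hmgn1-/-, 0.422, 0.492 and 0.654 in Hmgn2-/- and 0.544, 0.497 and 0.493 in the double knockout. The Hmgn1-/- libraries were below all WT libraries for both genes. For Hist1h2bm the Hmgn2-/- and double knockout libraries were below all WT libraries as well. In edgeR the log2 FC in Hmgn1-/- mESCs was -0.94 (SE 0.329, adjusted p = 0.0463) for Hist1h2ab and -0.97 (SE 0.342, adjusted p = 0.0486) for Hist1h2bm. DESeq2 gave adjusted p-values of 0.163 and 0.197. Over the alternatives, the adjusted p ran from 0.0337 to 0.163 for Hist1h2ab and from 0.0275 to 0.197 for Hist1h2bm. Leaving out any 1 of the 6 libraries, WT replicate 1, 2 or 3 or Hmgn1-/- replicate 1, 2 or 3, took the adjusted p of both genes over 0.05, to 0.0674 to 0.147 and 0.0936 to 0.151. The replicate block gave 0.0457 and 0.0583, and a filter that removed only genes without counts gave 0.0784 and 0.0984. Hist1h2ab had 11, 12 and 10 counts in Hmgn1-/- mESCs and 33, 17 and 23 in WT. Hist1h2bm had 9 counts in each Hmgn1-/- library and 25, 13 and 23 in WT. It passed the default filter through its WT libraries, and a filter at 10 counts in every library removed it. Hist1h2ab shares 45.1% of its windows of 150 bases with other H2A genes and overlaps an antisense gene, while Hist1h2bm shares none.

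In Hmgn2-/- mESCs against WT, 0 of 35 members were called by edgeR, beside 5.15% of all genes tested, and DESeq2 called 0. At an unadjusted p under 0.05, 2 members passed in edgeR, beside 31% of all genes, and 2 in DESeq2. At an adjusted p under 0.05 with no fold limit 0 members passed in edgeR and 0 in DESeq2, beside 18.9% of all genes. The log2 FC ran from -1.03 to 0.59 with a median of 0.11, and 22 members were positive and 13 negative. The median over all genes was 0.01.

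In Hmgn1-/-Hmgn2-/- mESCs against WT, 1 of 35 members was called by edgeR and by DESeq2, beside 6.30% of all genes tested: Hist3h2a, which encodes an H2A of the small Hist3 cluster. At an adjusted p under 0.05 with no fold limit, 2 members passed, Hist3h2a and Hist1h2af, beside 29.0% of all genes. The log2 FC of the members ran from -1.25 to 0.75 with a median of -0.07, and 15 were positive and 20 negative. The median over all genes was 0. In 8 members (22.9%) the double knockout and WT libraries did not overlap, and this was so for 42.4% of all genes tested.

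**Figure D3:**
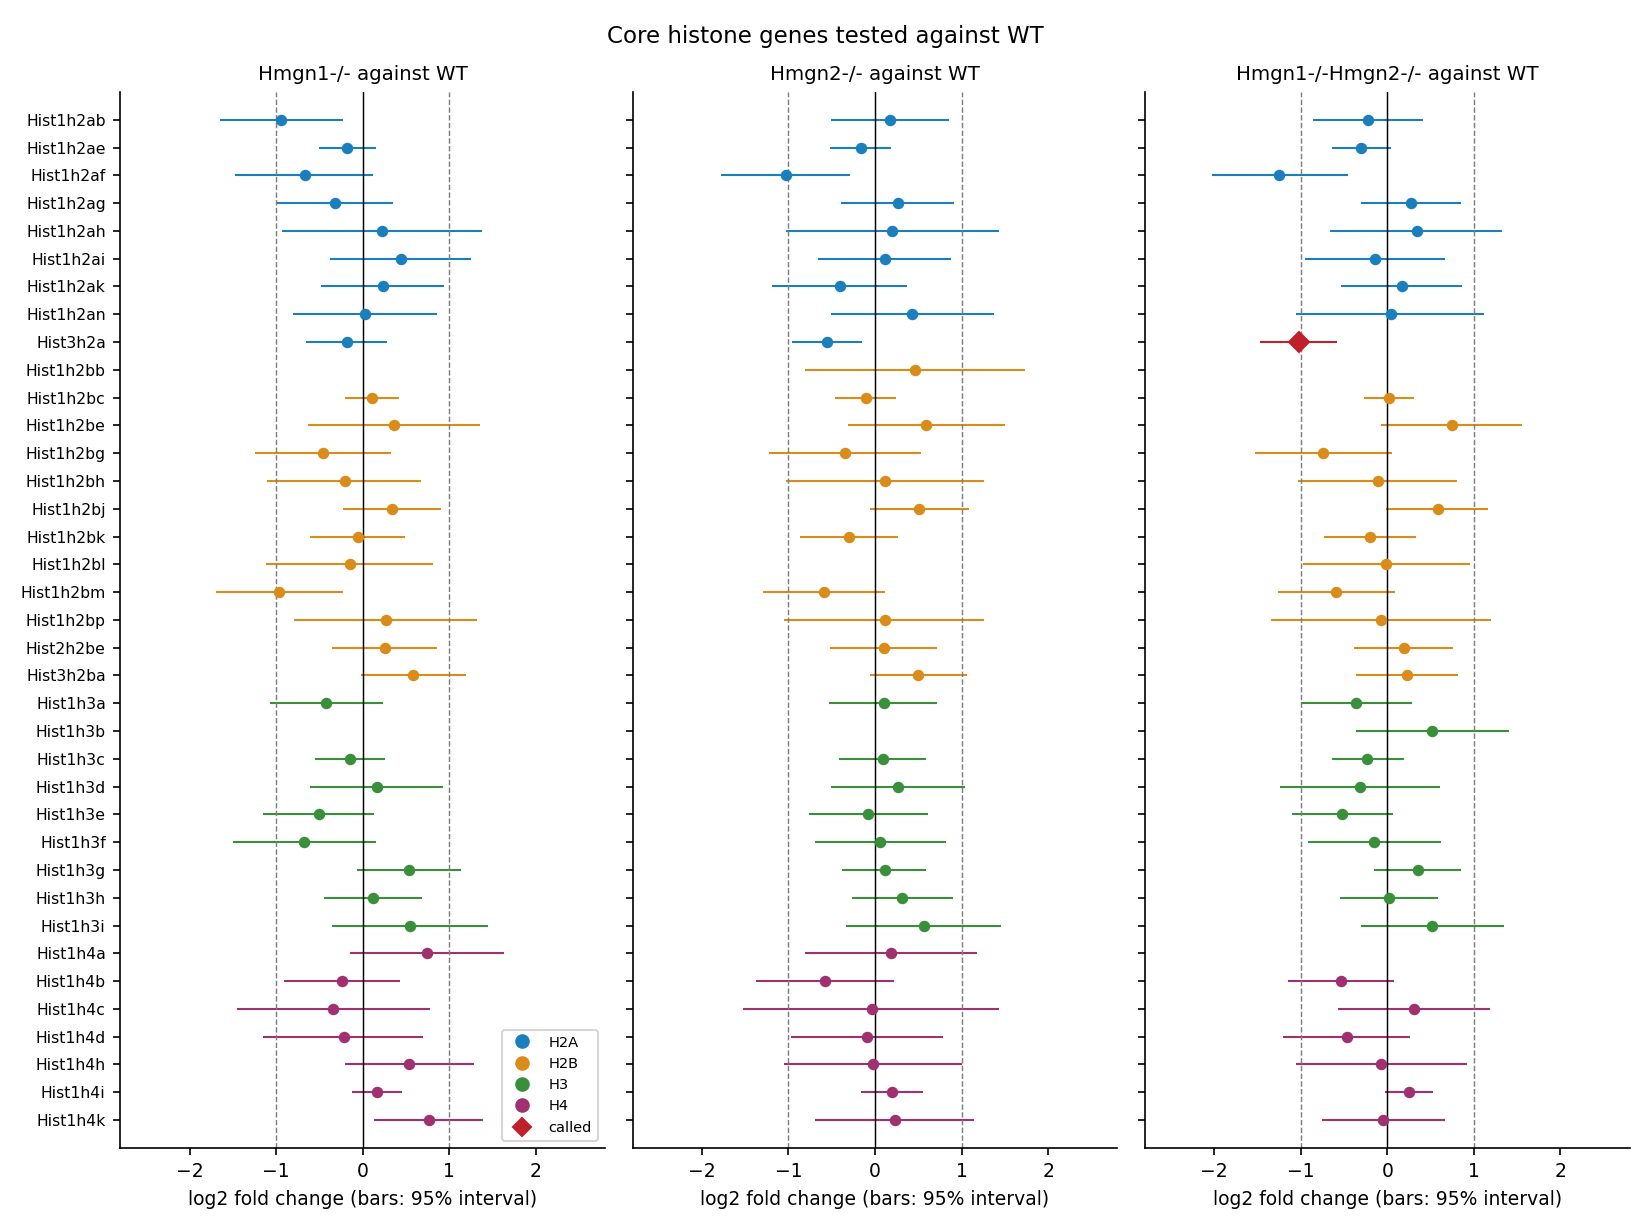
Log2 FC of each core histone gene tested against WT, in 1 panel per knockout, with 95% intervals from edgeR and dashed lines at -1 and 1. Genes that did not pass the filter in a comparison have no point there. The called gene, Hist3h2a in the double knockout at -1.02, is the diamond.

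Hist3h2a (chromosome 11, 58954685 to 58956830, plus strand) had 3.97, 4.19 and 4.37 CPM in WT mESCs and 3.64, 2.43 and 4.91 in Hmgn1-/-. It had 2.42, 2.8 and 3.33 CPM in Hmgn2-/- and 1.57, 1.99 and 2.62 in the double knockout, from 44 to 127 counts per library. Both genotypes with the Hmgn2 edit lay below all WT libraries, and the Hmgn1-/- libraries spanned them. In the double knockout it fell by 1.02 on the log2 scale (SE 0.206, 95% interval -1.47 to -0.58, adjusted p = 0.00201 in edgeR). In DESeq2 the adjusted p was 0.000374. The log2 FC was -0.56 in Hmgn2-/- mESCs (SE 0.184, adjusted p = 0.0582) and -0.18 in Hmgn1-/- mESCs (SE 0.218, adjusted p = 0.58). The difference between the double knockout and Hmgn1-/- mESCs did not pass the test, with a log2 FC of -0.84 (adjusted p = 0.168), nor did that between the double knockout and Hmgn2-/- mESCs, with -0.46 (adjusted p = 1).

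The value of Hist3h2a lay close to the fold limit, and single libraries decided the call. It was lost without WT replicate 3 (log2 FC -0.99, adjusted p = 0.00894), without double knockout replicate 1 (-0.84, adjusted p = 0.0132) and without double knockout replicate 2 (-1, adjusted p = 0.0109). Over all 13 alternatives the log2 FC ran from -1.24 to -0.84 and the adjusted p from 0.000184 to 0.0132. With the replicate number as a block, the paired fit gave -1.03 and an adjusted p of 0.000807. Hist3h2a shares 28% of its windows of 150 bases with Trim17, which it overlaps and which had 0 to 12 counts per library, and lies antisense to Gm44313. Whether the counting used the strand is not given in the sources used here. Its neighbour Hist3h2ba, an H2B gene with no shared windows, had log2 FC of 0.58, 0.5 and 0.23 in Hmgn1-/-, Hmgn2-/- and double knockout mESCs, with adjusted p-values of 0.143, 0.21 and 0.585 in edgeR.

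Hist1h2af, an H2A gene with 6 to 25 counts per library, had 0.782, 0.905 and 0.868 CPM in WT mESCs and 0.345, 0.43 and 0.825 in Hmgn1-/-. It had 0.307, 0.416 and 0.535 CPM in Hmgn2-/- and 0.352, 0.497 and 0.228 in the double knockout. The Hmgn2-/- and double knockout libraries lay below all WT libraries. In edgeR the log2 FC was -1.25 in the double knockout (SE 0.364, adjusted p = 0.0195), -1.03 in Hmgn2-/- (SE 0.338, adjusted p = 0.0552) and -0.67 in Hmgn1-/- mESCs (SE 0.371, adjusted p = 0.201). For the double knockout DESeq2 gave an adjusted p of 0.0674, and the alternatives ran from 0.0178 to 0.0903. The adjusted p passed 0.05 without WT replicate 2 (0.0559), WT replicate 3 (0.0613), double knockout replicate 1 (0.0648) or double knockout replicate 3 (0.0903). It shares 58.4% of its windows of 150 bases with other H2A genes and overlaps an antisense gene.

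Between the knockouts few genes of any kind differed. In Hmgn2-/- against Hmgn1-/- mESCs, 0 of 33 members were called by edgeR and 0 by DESeq2, beside 0.176% of all genes. An unadjusted p under 0.05 was reached by 2 members in edgeR, beside 3.2% of all genes, and by 1 in DESeq2, and an adjusted p under 0.05 by 0, beside 0.469% of all genes. In the double knockout against Hmgn1-/- mESCs, 0 of 36 members were called by edgeR and 0 by DESeq2, beside 0.511% of all genes. An unadjusted p under 0.05 was reached by 3 members in edgeR, Hist3h2a, Hist1h4a and Hist1h4k, beside 9.53% of all genes, and by 2 in DESeq2, and an adjusted p under 0.05 by 0, beside 1.82% of all genes. In the double knockout against Hmgn2-/- mESCs, 0 of 34 members were called by edgeR and 0 by DESeq2, beside 0.0434% of all genes. An unadjusted p under 0.05 was reached by 1 member in edgeR, beside 4.44% of all genes, and by 0 in DESeq2, and an adjusted p under 0.05 by 0, beside 0.261% of all genes. The medians of the members were 0.01, -0.08 and -0.15, and the median over all genes was 0 in each. Comparisons with a common genotype use the same 3 libraries of it, and all 3 comparisons with WT share the WT libraries.

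The members were measured less precisely than most genes. The median SE of their log2 FC was 0.33, 0.344 and 0.324 in the comparisons of Hmgn1-/-, Hmgn2-/- and double knockout mESCs with WT, against 0.1, 0.125 and 0.1 for all genes tested. The 95% interval lay within a log2 FC of 1 in size for 14, 16 and 16 of the 35 members, and for 81.1%, 79.3% and 80.3% of all genes. For the other members tested the interval did not exclude a change of that size, and 25 members were not tested at all.

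Of 15 replication-independent genes listed, 12 were in the tables and 9 were tested. In both Hmgn1-/- and Hmgn2-/- mESCs 2 of the 9 were called, beside 5.98% and 5.15% of all genes. The same 2 were the only ones at an adjusted p under 0.05 with no fold limit, beside 28.4% and 18.9% of all genes. Both were higher: H2afy and H2afy2, which encode the macroH2A variants, histones with a large globular domain found on silent chromatin. H2afy had 93.3, 71.5 and 73.4 CPM in WT mESCs, 162, 170 and 163 in Hmgn1-/-, 147, 163 and 180 in Hmgn2-/- and 130, 143 and 139 in the double knockout. H2afy2 had 23.5, 14 and 13.6 CPM in WT mESCs, 37.7, 35.4 and 33.9 in Hmgn1-/-, 35.8, 32.1 and 34.8 in Hmgn2-/- and 34.8, 30.6 and 34.3 in the double knockout. Every knockout library was above every WT library for both genes.

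In edgeR the log2 FC of H2afy was 1.05 (adjusted p = 1.29e-06) in Hmgn1-/-, 1.05 (adjusted p = 0.000133) in Hmgn2-/- and 0.79 (adjusted p = 2.03e-05) in double knockout mESCs, the last below the fold limit. That of H2afy2 was 1.05 (adjusted p = 0.000272), 1 (adjusted p = 0.00313) and 0.95 (adjusted p = 0.000626), again with the last below it. The values lie at the fold limit, and WT replicate 1 was the highest WT library for both genes. In Hmgn1-/- mESCs the calls were lost without WT replicate 2 (0.99 for H2afy and 0.94 for H2afy2) or WT replicate 3 (1 after rounding and 0.9). In Hmgn2-/- mESCs they were lost without WT replicate 2 (0.98 and 0.89), WT replicate 3 (0.99 and 0.86) or Hmgn2-/- replicate 3 (0.97 and 0.99), and for H2afy2 also without Hmgn2-/- replicate 1 (0.97), with all 12 libraries in 1 fit (0.99) and with a filter at 10 counts in every library (0.99). In the double knockout H2afy2 was called without WT replicate 1 (1.27) or double knockout replicate 2 (1.01). Against Hmgn1-/- mESCs the double knockout had an H2afy log2 FC of -0.26 (adjusted p = 0.023), which did not keep an adjusted p under 0.05 without Hmgn1-/- replicate 2 (0.155), double knockout replicate 1 (0.0752) or double knockout replicate 2 (0.0575), nor with all 12 libraries in 1 fit (0.375).

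H2afx, whose product is phosphorylated at DNA breaks, had 523, 585 and 609 CPM in WT mESCs, 532, 538 and 635 in Hmgn1-/-, 447, 485 and 568 in Hmgn2-/- and 396, 466 and 502 in the double knockout. The double knockout libraries lay below all WT libraries, with a log2 FC of -0.33 (SE 0.0801, adjusted p = 0.00728 in edgeR), short of the fold limit. H2afv was the other gene of this list lower there at an adjusted p under 0.05, with a log2 FC of -0.21 (adjusted p = 0.0432). With it, 2 of the 9 were lower and 2 higher, beside 29.0% of all genes in either direction. Its adjusted p passed 0.05 without WT replicate 1 (0.151), WT replicate 3 (0.0612) or double knockout replicate 1 (0.0815), 2 (0.116) or 3 (0.106), and with all 12 libraries in 1 fit (0.0687). H2afz had 1070, 1030 and 1040 CPM in WT mESCs and log2 FC of 0.14, 0.18 and 0.1 in Hmgn1-/-, Hmgn2-/- and double knockout mESCs, with adjusted p-values of 0.115, 0.211 and 0.225. H3f3b had log2 FC of -0.02, 0.05 and 0.08, with adjusted p-values of 0.77, 0.703 and 0.275. The 12 genes of the list summed to 3210 ± 54.6 CPM in WT, 3460 ± 183 in Hmgn1-/-, 3420 ± 310 in Hmgn2-/- and 3270 ± 175 in double knockout mESCs (SD, n = 3).

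**Figure D4:**
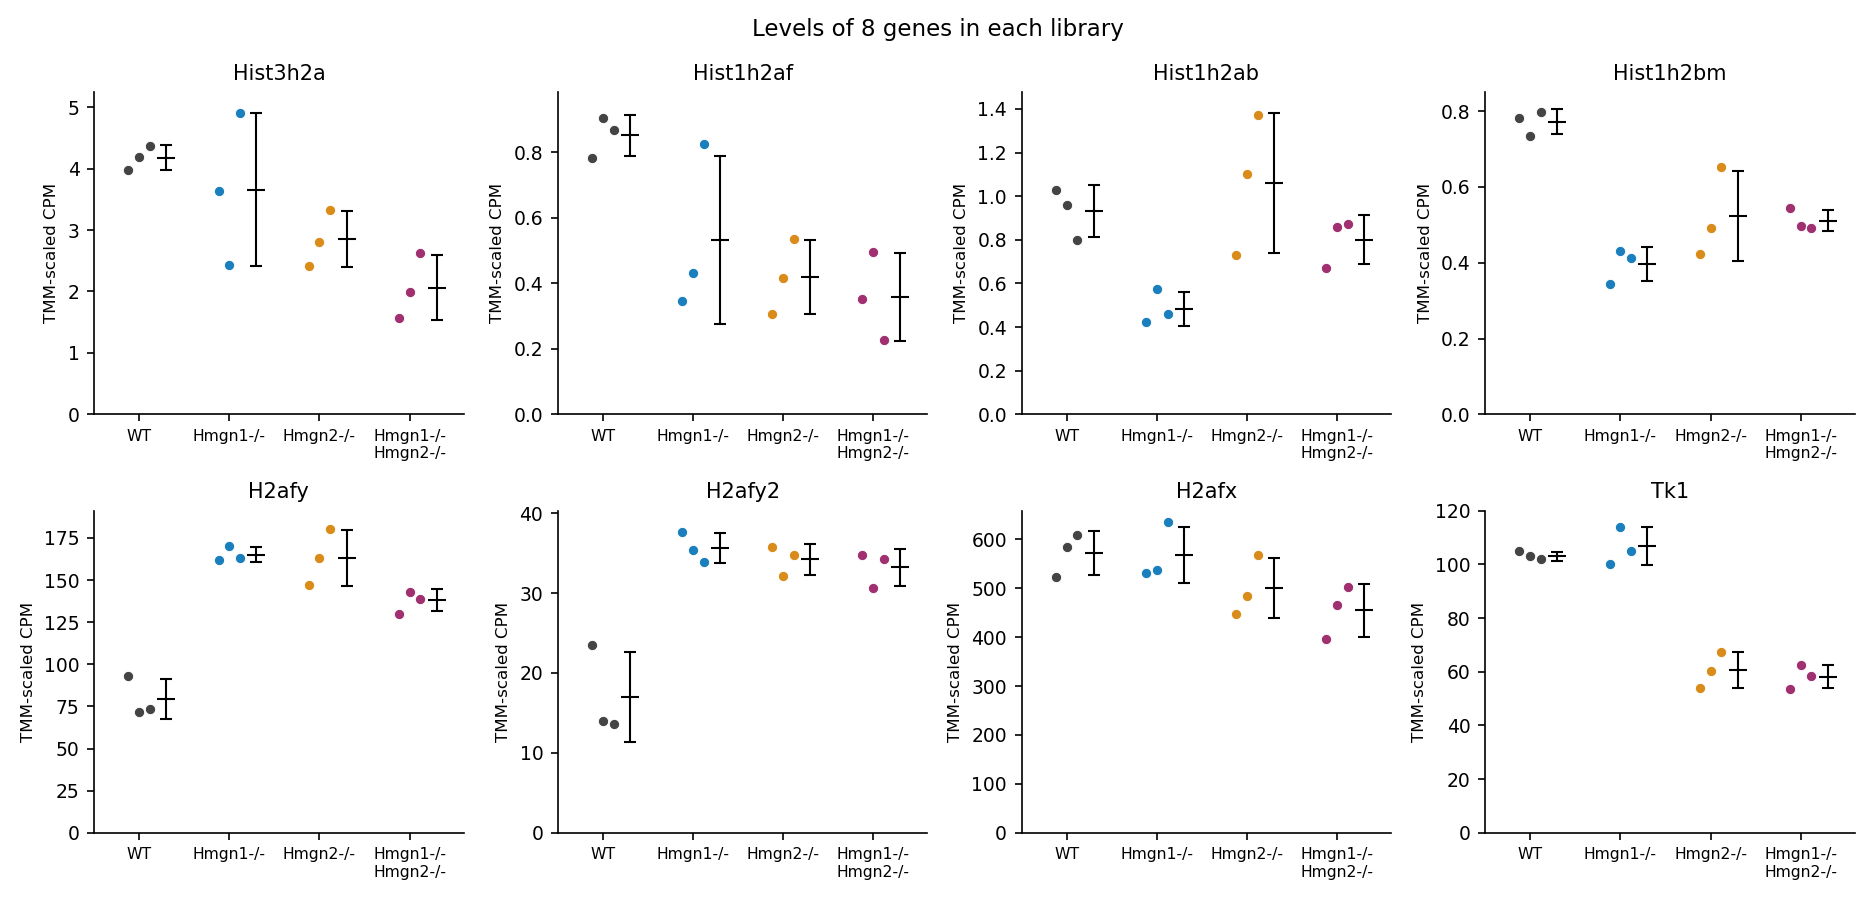
TMM-scaled CPM of 4 clustered genes (top) and of 3 replication-independent genes and Tk1 (bottom), 1 point per library, with the mean and SD of each genotype (n = 3). H2afy and H2afy2 are higher in every knockout library than in any WT library. By its mean, Hist3h2a is lowest in the double knockout, whose libraries at 1.57 to 2.62 CPM overlap those of Hmgn1-/- and Hmgn2-/-.

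Linker histones H1 bind the DNA between nucleosomes. Of the 10 genes listed, 7 were tested against WT and none was called by edgeR in any of the 3 comparisons, while 2 of the 7 had an adjusted p under 0.05 in each, beside 28.4%, 18.9% and 29.0% of all genes. Both were higher: H1fx and H1f0, the replication-independent members. H1fx had 89.6, 76.3 and 71.9 CPM in WT mESCs and means of 108, 106 and 103 in Hmgn1-/-, Hmgn2-/- and double knockout mESCs, with log2 FC of 0.44, 0.42 and 0.37 and adjusted p-values of 0.00172, 0.00978 and 0.00267. H1f0 had 63.8, 50 and 52.1 CPM in WT mESCs and means of 76.1, 70.3 and 74.7, with log2 FC of 0.46, 0.35 and 0.43 and adjusted p-values of 0.00102, 0.0443 and 0.00412. For Hmgn2-/- mESCs the adjusted p passed 0.05 without WT replicate 2 (0.0544 for H1fx and 0.185 for H1f0) or WT replicate 3 (0.0672 and 0.184), and for H1f0 also without Hmgn2-/- replicate 2 (0.132) or replicate 3 (0.0559) with the replicate block (0.0632) and with a filter at 10 counts in every library (0.0551). The clustered gene Hist1h1c, which has the stem-loop, had log2 FC of 0.01, -0.01 and -0.1 with adjusted p-values of at least 0.773. Among the other clustered genes tested, Hist1h1a had -0.65, -0.91 and -0.55 and Hist1h1b had 0.84, 1.08 and 0.62. Their adjusted p-values in edgeR were at least 0.0916.

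The genes that make, process and remove histone mRNA showed no called member in any comparison with WT. The counts that follow are at an adjusted p under 0.05, which 28.4%, 18.9% and 29.0% of all genes passed in Hmgn1-/-, Hmgn2-/- and double knockout mESCs. In the list of histone gene transcription, 12 of 12 genes were tested and 2, 2 and 3 were higher, with none lower. Both E2f2 and E2f4, which encode E2F transcription factors, were among them. The larger change was that of E2f2, with log2 FC of 0.82, 0.71 and 0.8, and E2f4 had 0.33, 0.34 and 0.36. Of 20 genes of 3′ end processing, 20, 19 and 19 were tested, 1, 0 and 3 were higher and 0, 1 and 1 lower. Of 16 genes of histone mRNA decay, 5, 3 and 6 were higher and none lower, among them Lsm4, of the LSM ring, with log2 FC of 0.31, 0.36 and 0.25. In Hmgn2-/- mESCs its adjusted p of 0.0279 passed 0.05 without WT replicate 1 (0.0535), WT replicate 2 (0.0937), WT replicate 3 (0.131) or Hmgn2-/- replicate 2 (0.0566). Of 23 histone chaperones, 2, 0 and 4 were higher and 2, 0 and 2 lower. The medians of these 4 lists lay between -0.01 and 0.13.

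Genes of DNA replication and S phase were listed as well. Whether their RNA follows the share of cycling cells was not tested. All 42 were tested and none was called, while 6, 3 and 7 were higher and 5, 1 and 4 lower at an adjusted p under 0.05, beside 28.4%, 18.9% and 29.0% of all genes in either direction. Their summed level was 9640 ± 267 CPM in WT, 9620 ± 260 in Hmgn1-/-, 9780 ± 345 in Hmgn2-/- and 9570 ± 184 in double knockout mESCs (SD, n = 3). Of the 3 most abundant, Mcm2 had log2 FC of 0.08, 0.04 and 0.04, and Mcm7 had -0.15, -0.05 and -0.16. Mcm7 was lower in the double knockout at an adjusted p of 0.0424 in edgeR. Mcm5, a subunit of the replicative helicase, had log2 FC of 0.28, 0.3 and 0.24. In Hmgn2-/- mESCs its adjusted p of 0.02 passed 0.05 without WT replicate 1 (0.0569), WT replicate 2 (0.053), WT replicate 3 (0.121) or Hmgn2-/- replicate 2 (0.103). Tk1, thymidine kinase, was chosen after its values were seen: it had 105, 103 and 102 CPM in WT mESCs, 100, 114 and 105 in Hmgn1-/-, 54.1, 60.3 and 67.5 in Hmgn2-/- and 53.7, 62.4 and 58.6 in the double knockout. The Hmgn2-/- and double knockout libraries lay below all others, with log2 FC of -0.76 (adjusted p = 0.000235) and -0.83 (adjusted p = 9.56e-07) against WT, short of the fold limit.

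Markers of other cells differed between the genotypes. Of 10 primitive endoderm markers, 7, 8 and 9 were called higher in Hmgn1-/-, Hmgn2-/- and double knockout mESCs against WT. Of all genes tested, 5.98%, 5.15% and 6.30% were called in either direction, with 125, 109 and 184 genes higher. The 10 markers summed to 408, 551 and 586 CPM in WT mESCs, 652, 547 and 606 in Hmgn1-/-, 727, 693 and 580 in Hmgn2-/- and 1310, 1310 and 1260 in the double knockout. The most abundant was Sparc, with a mean of 255 CPM, and it went the other way, with log2 FC of -0.92 (adjusted p = 9.29e-05) in Hmgn1-/-, -0.77 (adjusted p = 0.00294) in Hmgn2-/- and -0.22 (adjusted p = 0.15) in double knockout mESCs. In Hmgn1-/- mESCs Sparc was called lower without WT replicate 1 (-1.09) or Hmgn1-/- replicate 3 (-1.04). No marker of this list was at 0 in any library. Col4a1 was not called in Hmgn2-/- mESCs without WT replicate 1 (0.99) or Hmgn2-/- replicate 1 (0.98).

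Of 8 fibroblast markers, 4 were tested and 3 were called lower in each knockout, Col1a1, Col1a2 and Thy1, where 707, 615 and 706 of all genes tested were called lower (5.98%, 5.15% and 6.30% in either direction). The fourth, Fbn1, was not lower, with log2 FC of 0.13, 0.32 and 0.37 and adjusted p-values of 0.619, 0.408 and 0.134. All 8 markers summed to 25, 20.2 and 24.1 CPM in WT mESCs, 10.4, 10.3 and 9.26 in Hmgn1-/-, 12.1, 11 and 9.21 in Hmgn2-/- and 11.7, 12.8 and 11.2 in the double knockout. The most abundant was Thy1, with a mean of 5.89 CPM, and Lum was at 0 in all libraries. The part of either cell type in the histone results was not tested.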

How the data were processed

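RNA of v6.5 mESCs was measured in 12 libraries, with genotype and replicate taken from the sample labels. The authors enriched poly-A transcripts, sequenced paired ends of 150 bp and used STAR with mm10 for alignment. The deposited values are whole-number counts per gene, not normalized. The counting program, annotation and strand setting are not given in the sources used here.

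Each pair of genotypes was fitted in R 4.3.3 with edgeR 4.0.16 on the 6 libraries concerned, with TMM, filterByExpr at its defaults and the quasi-likelihood test. P-values were adjusted by Benjamini-Hochberg over all genes tested. Intervals are at the 95% level. Summed CPM was described without a test. Exon lengths, stem-loops and shared windows come from GENCODE M21.

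The members, lists and rules were chosen with earlier results of these data known. Named genes were members called in a comparison, the 3 with the highest mean CPM of each histone type, up to 5 in each direction with the largest log2 FC at an adjusted p under 0.05, Hist1h2aa, Hist1h2ba and Hist3h2ba, and of each list the called genes and the 3 most abundant. Not all that met this rule are given with values. Col1a1 and Col1a2 are only named as called. Ccne1, Yy1, Srrt, Snrpb, Cpsf1, Upf1, Exosc10, Npm1, Nap1l1, Nasp, Lama1 and Foxa2 are left out. Others were chosen after their values were seen, including Hist1h4a, Hist1h2bg, H3f3a, H2afy3, H2afb1, H2bfm, H2afv, E2f2, Nanog, Klf4 and Esrrb.

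Alternatives were DESeq2 1.42.0, RLE scaling or library totals, other filters, an adjusted p under 0.05 with no fold limit, all 12 libraries in 1 fit, a replicate block, and each library left out. Same-numbered libraries deviated together, with r over 0.1 in all 3 pairs, for the double knockout against WT (0.203, 0.152 and 0.138) and for Hmgn2-/- against Hmgn1-/- (0.285, 0.138 and 0.298). The double knockout against Hmgn2-/- had 0.443, 0.0989 and 0.348, and over all comparisons 14 of 18 pairs were over 0.1. No main fit had a block, and the replicate block was an alternative for every comparison. The steps were tested on simulated data, of which no result is given here. Other experiments of the study were not analysed here.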

Additional observations from a re-analysis of the deposited data

Results flagged for a closer look

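Some primitive endoderm markers differed between knockouts, by edgeR tests of the difference itself. In the double knockout against Hmgn1-/- mESCs the log2 FC was 1.38 for Sox17 (adjusted p = 2.88e-05), 1.18 for Gata4 (8.82e-07), 1.67 for Dab2 (2.66e-07), 1.51 for Gata6 (1.94e-06), 1.65 for Cubn (2.23e-07), 1.36 for Pdgfra (3.58e-06) and 1.49 for Col4a1 (3.72e-08). Against Hmgn2-/- mESCs it was 1.36 for Dab2 (adjusted p = 0.00198), a call lost without Hmgn2-/- replicate 2 (1.35, adjusted p = 0.0352), double knockout replicate 2 (1.38, adjusted p = 0.0275) or double knockout replicate 3 (1.35, adjusted p = 0.0239). In that comparison 8 of the 10 markers were higher at an adjusted p under 0.05, beside 0.261% of all genes in either direction, and 1 without Hmgn2-/- replicate 2 or without double knockout replicate 1, 2 or 3. No core histone gene was called in these comparisons by edgeR or DESeq2. At an unadjusted p under 0.05 there were 3 members in edgeR and 2 in DESeq2 against Hmgn1-/-, and 1 and 0 against Hmgn2-/-, beside 9.53% and 4.44% of all genes in edgeR.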

How the results depend on the processing

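The count of core histone genes called was 0 in Hmgn1-/- mESCs and 1 in the double knockout against WT, and each became 2 at an adjusted p under 0.05 with no fold limit, a looser rule by construction. Leaving out 1 library gave 0 to 1 for the double knockout, with 0 without WT replicate 3, double knockout replicate 1 or double knockout replicate 2. The counts of the other comparisons stayed at 0 under every alternative. The replicate block changed no member's call: 0, 0 and 1 against WT and 0, 0 and 0 between knockouts.

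Leaving out 1 library, the summed ratio to WT ran from 0.965 to 1.05 in Hmgn1-/-, 0.91 to 1.07 in Hmgn2-/- and 0.907 to 0.983 in the double knockout. Without Hist1h4i it was 0.992, 0.986 and 0.915. The H2A ratio of the double knockout ran from 0.734 to 0.825 without 1 library.

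Over all genes, the rule with an adjusted p under 0.05 in place of 0.01 and no fold limit called 3959, 2649 and 4094 against WT, in place of 832, 724 and 890, and 64, 249 and 36 between knockouts, in place of 24, 70 and 6. For the double knockout against Hmgn2-/- the 6 became 36 with DESeq2, 21 without the filter, 18 with all 12 libraries, 32 with the replicate block and 1 to 12 without 1 library. The cause was not tested. With 19 members at 10 counts or more in every library, depth limits single members, and near-identical copies and the poly-A selection limit what their counts stand for.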
